A study of Mus musculus with 8 samples.

Results

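The transforming growth factor β (TGF-β) and bone morphogenetic protein (BMP) pathway was followed through 39 genes, taken by symbol from the 23699 entries that each library listed, and all 39 symbols were found once. They comprised 10 ligands, 8 receptors, 7 SMAD genes, 4 intracellular inhibitors, 4 secreted antagonists and follistatin relatives, 4 ID genes, and the protease gene Bmp1 and the matrix gene Tgfbi. RNA sequencing had been done on 8 samples of 3T3-L1, an established line of mouse embryo fibroblasts used as a model of adipocyte differentiation. All samples were preadipocytes collected 2 days after confluence, and all had been exposed before confluence for 24 hours to 40 nM of a pool of 3 Stealth siRNAs in a cationic lipid reagent. In 4 samples the pool was directed against Fto, a dioxygenase gene of the AlkB family, and in the 4 controls the pool was nontargeted. The line is a single cell line in culture, the siRNAs of a pool cannot be separated in these data, and a change in RNA per cell cannot be told apart from a change in the mix of cells.

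TGF-β, activin and BMP ligands are secreted dimers that bring together type I and type II receptor kinases on the cell surface. TGF-β and activin receptors phosphorylate SMAD2 and SMAD3, BMP receptors phosphorylate SMAD1 and SMAD5, and both sets act in the nucleus with SMAD4. In preadipocytes, TGF-β and activin are known as inhibitors of adipocyte differentiation, while BMP2 and BMP4 are known to promote commitment to the adipocyte lineage. The ID genes are classical immediate targets of BMP signalling, and gremlin 1, follistatin and their relatives bind ligands outside the cell.

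Fto mRNA was lower in every library with Fto siRNA, at 12.1 ± 1.29 FPKM against 55.3 ± 0.647 FPKM in the controls (SD, n = 4 in each group, as for all means below), where FPKM is fragments per kilobase of transcript, scaled to the mapped total of a library. The width of the deposited intervals put the depth at 18900000 to 24400000 fragments per library. The fibroblast markers other than Cd34 were abundant in both groups. Cd34 lay below the filter, with means of 0.658 and 0.767 FPKM. All 12 markers summed to 11710 to 12290 FPKM in the controls and 12600 to 13970 FPKM with Fto siRNA. Of the 11 tested among these 12 markers 5 rose and 2 fell (45.5% and 18.2%, beside 6.97% and 12.3% of all tested genes). Thy1 and Ly6a were among the risen markers, and Pdgfra and Pdgfrb were those that fell. The part of these markers in the pathway genes' changes was not tested. The collagen genes Col1a1, Col1a2 and Col3a1 among the 5 are also TGF-β targets counted below. Of the markers of other cells, Epcam, Krt18, Emr1 and Myod1 were listed at 0 in all libraries. The 6 macrophage markers summed to 7.86 to 9.74 FPKM in the controls and 8.76 to 10.07 FPKM with Fto siRNA, most of it Cd14, and Csf1r, below the filter, had means of 0.672 and 0.933 FPKM without overlap. The muscle marker Des (1.92 and 1.81 FPKM) and the chondrocyte marker Sox9 (28.1 and 29.9 FPKM) were expressed and not called. The 4 endothelial markers summed to 0.347 to 0.478 FPKM in the controls and 0.379 to 0.571 FPKM with Fto siRNA. The 8 mature adipocyte markers summed to 81.9 to 116 FPKM in the controls and 83.1 to 96.5 FPKM with Fto siRNA. Most of each sum was Fabp4 and Plin4. All 4 tested adipocyte markers had negative estimates, as did 6301 of all 11398 tested genes, and none was called. Control replicate 4 had the highest sum, with Adipoq at 9.19 FPKM against 2.77 to 3.20 FPKM in the other controls. The part of that library in the results below was not tested beyond leaving it out. Control replicate 3 stood furthest from its group, differing from the other controls by a median of 1.27 to 1.52 counting standard errors per gene.

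Of the 39 genes, 35 had a mean of at least 1 FPKM and were tested, and 4 of them rose with Fto siRNA while 0 fell (limma, adjusted p under 0.05 over 11398 tested genes). The risen genes were Grem1, which encodes the BMP antagonist gremlin 1, the follistatin-like glycoprotein gene Fstl1, the BMP target Id1 and Bmp1. Over all tested genes 6.97% were called higher and 12.3% lower. An unadjusted p under 0.05 was reached by 10 of the 35 as higher and by 0 as lower, beside 12.5% and 19.9% of all tested genes. In 10 of the 35 every library of one group lay on the same side of the other group, 9 genes being higher and 1 lower, where 9.08% and 15.1% of all tested genes were so separated. The median log2 fold change was 0.0211 over the 35 genes and -0.0166 over all tested genes. The count of risen genes was 7 without control replicate 3 and 2 when either control replicate 4 or Fto siRNA replicate 3 was left out. Under median-ratio scaling the 35 genes gave 6 higher and 0 lower, and all tested genes gave 1086 higher and 1218 lower in place of 794 and 1401. Smad5 and Smad6 were the genes that joined.

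**Figure D1:**
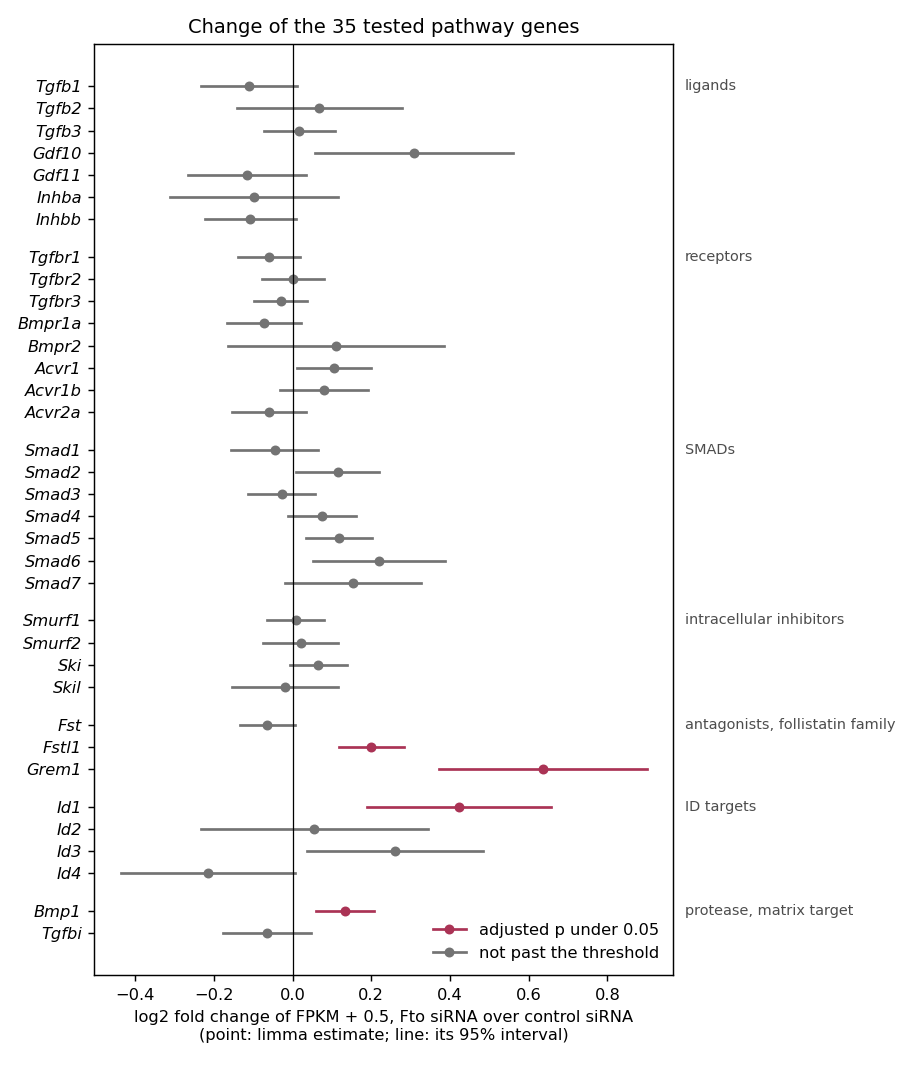
Log2 fold change of FPKM + 0.5 (x axis, Fto siRNA over control siRNA) for the 35 tested genes, ordered by role, as the limma estimate with its 95% interval. Grem1, at 0.64, lies furthest to the right, followed by Id1 at 0.42. The 4 red genes are those with an adjusted p under 0.05.

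Grem1 had the largest fold change of the 35 tested genes. Gremlin 1 is a secreted protein that binds BMP2 and BMP4 and keeps them from their receptors, and its gene lies at chr2:113588832-113598805 in mm9, as deposited. The controls held 40.2, 54.7, 40.8 and 45.7 FPKM and the Fto siRNA libraries 59.1, 85.4, 73.4 and 65.4 FPKM. Every Fto siRNA library was above every control, although the lowest of them lay close to control replicate 2. The mean went from 45.3 ± 6.72 to 70.8 ± 11.3 FPKM, a log2 fold change of 0.64 with SE 0.12 (95% interval 0.37 to 0.90, limma adjusted p = 0.00528). Permuting the group labels exactly gave a two-sided p of 0.0286, below which the 70 arrangements of 8 libraries cannot go. Grem1 remained called under each of 16 alternatives, with an adjusted p of at most 0.0242.

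The follistatin gene Fst did not pass the test. It encodes follistatin, which binds activins with high affinity. Its controls held 124, 124, 127 and 119 FPKM and its Fto siRNA libraries 116, 121, 118 and 118 FPKM, so the groups overlapped (log2 fold change -0.06, 95% interval -0.13 to 0.01, adjusted p = 0.193). The log2 ratio of Grem1 to Fst was -1.45 ± 0.22 in the controls and -0.75 ± 0.20 with Fto siRNA, 0.70 higher, which is a description without a test, since both genes were chosen after their values were seen. Fstl3, a further activin-binding protein gene, was barely detected, at 0.197 ± 0.0796 and 0.153 ± 0.108 FPKM, and was not tested.

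Fstl1 was the most abundant of the 39 genes and rose by a small and regular amount. It encodes a secreted glycoprotein with a follistatin-like domain and lies at chr16:37777141-37836602 in mm9. The controls held 827, 845, 826 and 812 FPKM and the Fto siRNA libraries 918, 950, 966 and 970.1 FPKM. The groups were separated by more than the range of either. The mean went from 828 ± 13.5 to 951 ± 23.5 FPKM, a rise of 14.9% and a log2 fold change of 0.20 with SE 0.04 (95% interval 0.12 to 0.28, limma adjusted p = 0.00493; exact permutation p = 0.0286). Fstl1 was called under each of the 16 alternatives, with an adjusted p of at most 0.0222.

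RefSeq promoter windows on GRCm38.p6, from 250 bases before to 50 bases after a start, were listed for 29 of the 39 genes. They are shown for Grem1 and Fstl1, which rose, and for the ID gene Id3. Id1 and Bmp1 had no entry. Capitals mark CAGAC, the SMAD3 and SMAD4 box, and GGCGCC, a GC-rich element of BMP-responsive promoters, both searched on either strand (GTCTG is CAGAC on the other strand, GGCGCC reads the same on both, and the motifs can share an end base).
Grem1, chr2:113758599-113758898, minus strand: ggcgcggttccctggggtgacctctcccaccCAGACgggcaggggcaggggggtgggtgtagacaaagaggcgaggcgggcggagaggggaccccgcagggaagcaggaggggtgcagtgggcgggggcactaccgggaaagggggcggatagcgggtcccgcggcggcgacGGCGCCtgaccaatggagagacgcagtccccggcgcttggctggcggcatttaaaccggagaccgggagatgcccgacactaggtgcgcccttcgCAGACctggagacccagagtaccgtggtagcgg
Fstl1, chr16:37776805-37777104, plus strand: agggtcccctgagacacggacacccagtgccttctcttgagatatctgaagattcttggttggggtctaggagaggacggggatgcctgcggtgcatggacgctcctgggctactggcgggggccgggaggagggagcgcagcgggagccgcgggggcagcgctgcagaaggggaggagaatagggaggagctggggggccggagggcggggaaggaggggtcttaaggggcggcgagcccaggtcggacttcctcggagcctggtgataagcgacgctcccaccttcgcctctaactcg
Id3, chr4:136143572-136143871, plus strand: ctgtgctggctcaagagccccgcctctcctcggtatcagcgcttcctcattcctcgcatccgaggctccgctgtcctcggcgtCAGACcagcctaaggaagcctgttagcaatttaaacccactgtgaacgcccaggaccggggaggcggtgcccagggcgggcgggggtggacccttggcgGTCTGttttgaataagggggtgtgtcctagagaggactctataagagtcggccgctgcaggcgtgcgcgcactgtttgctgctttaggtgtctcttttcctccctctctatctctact
The Grem1 window held CAGAC from 219 bases before and from 17 bases after its start, and GGCGCC from 78 bases before it. The Id3 window held CAGAC from 167 and from 68 bases before its start, and the Fstl1 window held neither motif. CAGAC was found in 13 of the 29 genes (44.8%), against 51.6% of 8099 tested genes with a window and 49.6% of all 32851 windows. GGCGCC was found in 12 of 29 (41.4%), against 25.4% and 11.9%. These matches describe letters in a window and were not tested.

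Id1 rose and the other ID genes did not pass the test. The ID proteins lack a DNA-binding domain and sequester basic helix-loop-helix transcription factors. Id1, at chr2:152562010-152563146 in mm9, held 57.0, 75.9, 84.2 and 69.6 FPKM in the controls and 85.5, 104, 100.4 and 92.6 FPKM with Fto siRNA. The groups did not overlap, but the highest control, replicate 3, lay just below Fto siRNA replicate 1. The mean went from 71.7 ± 11.5 to 95.6 ± 8.17 FPKM, a log2 fold change of 0.42 with SE 0.11 (95% interval 0.19 to 0.66, limma adjusted p = 0.0194; exact permutation p = 0.0286). The adjusted p of Id1 was 0.0505, 0.0551 and 0.0550 when control replicate 4, Fto siRNA replicate 2 or Fto siRNA replicate 3 was left out, and 0.0627 with no filter on low values.

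Id3 held 46.9, 64.1, 67.7 and 60.3 FPKM in the controls and 64.6, 77.7, 71.7 and 70.5 FPKM with Fto siRNA. Its log2 fold change was 0.26 (95% interval 0.04 to 0.48, adjusted p = 0.101), and the groups overlapped through control replicate 3, without which it was called (0.32, adjusted p = 0.0436). Id2 had overlapping groups of 32.0 ± 5.66 and 33.1 ± 4.68 FPKM (log2 fold change 0.06, 95% interval -0.23 to 0.34, adjusted p = 0.806). Id4 held 13.4 ± 1.34 and 11.5 ± 1.61 FPKM (-0.21, 95% interval -0.44 to 0.01, adjusted p = 0.166). Id4 was thus the ID gene with a negative estimate.

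The ratio of Id1 to each of its relatives, chosen after the values were seen and so given without a test, was higher in each Fto siRNA library than in any control. The log2 ratio of Id1 to Id2 was 1.16 ± 0.04 in the controls and 1.52 ± 0.08 with Fto siRNA, that of Id1 to Id3 was 0.26 ± 0.05 and 0.42 ± 0.04, and that of Id1 to Id4 was 2.37 ± 0.15 and 3.01 ± 0.14. The spread of these ratios was smaller than that of the genes themselves for Id2 and Id3. Replicate 1 was the lowest library of its group for Id1, Id2, Id3, Id4 and Grem1, in the controls and with Fto siRNA alike. Over all tested genes, control replicate 1 was the lowest control for 32.7% and Fto siRNA replicate 1 the lowest of its group for 26.4%.

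**Figure D2:**
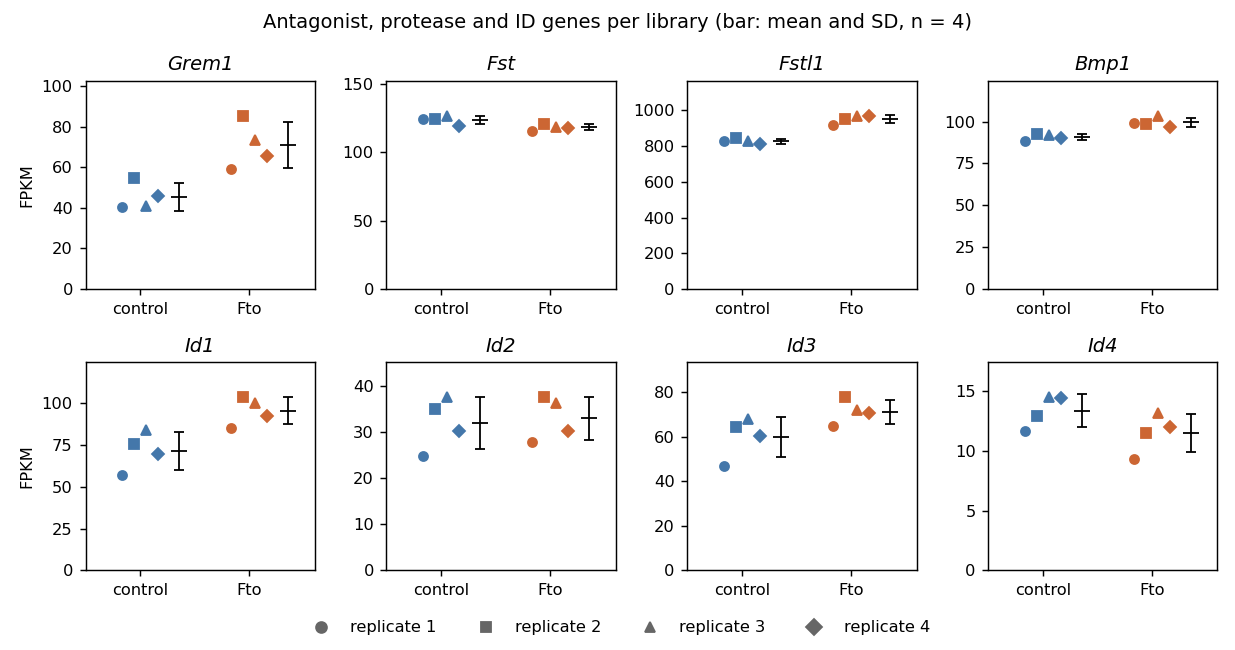
FPKM (y axis, from 0) of 8 genes in each library, with control siRNA in blue, Fto siRNA in orange, a symbol for each replicate number, and the group mean and SD (n = 4) as bars. Grem1, Fstl1, Bmp1 and Id1 show no overlap between groups, while Fst, Id2, Id3 and Id4 overlap. Replicate 1 is lowest for each ID gene in both groups.

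Bmp1 rose by 9.69%. Despite its name it is no ligand: it encodes a secreted metalloproteinase that trims procollagens and cleaves the BMP antagonist chordin. The controls held 88.4, 92.4, 92.1 and 89.9 FPKM and the Fto siRNA libraries 99.3, 98.6, 103 and 96.7 FPKM, without overlap. The log2 fold change was 0.13 with SE 0.03 (95% interval 0.06 to 0.21, limma adjusted p = 0.0191; exact permutation p = 0.0286). Bmp1, at chr14:70874362-70920067 in mm9, passed no longer when control replicate 4 (adjusted p = 0.0520) or replicate 3 of the Fto siRNA group (0.0559) was left out. Tgfbi, a matrix protein gene named for its induction by TGF-β, held 15.4 ± 0.665 and 14.7 ± 0.875 FPKM (-0.06, adjusted p = 0.408).

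None of the 7 tested ligands passed the test. Tgfb3 was the most abundant, at 17.9 ± 0.606 FPKM in the controls, followed by Tgfb1 and the activin subunit gene Inhbb at 7.54 ± 0.578 and 7.53 ± 0.384 FPKM, which did not differ beyond their spread. Gdf11, at 6.30 ± 0.456 FPKM, and the activin A subunit gene Inhba, at 5.88 ± 0.885 FPKM, overlapped in the same way. Tgfb2 and Gdf10 were the lowest tested ligands, at 2.58 ± 0.385 and 1.62 ± 0.3302 FPKM.

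Gdf10, which encodes the BMP-like ligand also called BMP3b, held 1.27, 1.87, 1.93 and 1.40 FPKM in the controls and 1.93, 2.10, 2.1998 and 2.17 FPKM with Fto siRNA. Its groups did not overlap, by a margin within the rounding of these values, and its log2 fold change of 0.31 (95% interval 0.06 to 0.56) had an adjusted p of 0.0833, or 0.0411 without control replicate 3. Tgfb1 was the gene that was lower without overlap, with controls of 7.34, 7.22, 8.40 and 7.20 FPKM against 7.05, 6.73, 7.06 and 6.90 FPKM (-0.11, 95% interval -0.23 to 0.01, adjusted p = 0.196). For Tgfb3 the interval was narrow, from -0.07 to 0.11. The activin subunit genes lay at -0.10 for Inhba (adjusted p = 0.519) and at -0.11 for Inhbb (0.184).

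The BMP ligands with known roles in adipocyte commitment were close to or at the floor. Bmp2 was listed at 0 in all 8 libraries. Bmp4 was listed at 0.135, 0.301, 0.277 and 0.146 FPKM in the controls and at 0.0779, 0.107, 0.0896 and 0.156 FPKM with Fto siRNA, with overlapping groups and a counting interval whose half-width was 85.5% of the value. Bmp6 was listed at no more than 0.0840 FPKM in any library. These 3 ligands and Fstl3 are the 4 genes that lay below the mean of 1 FPKM required for the test. A difference in them was therefore not tested.

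**Figure D3:**
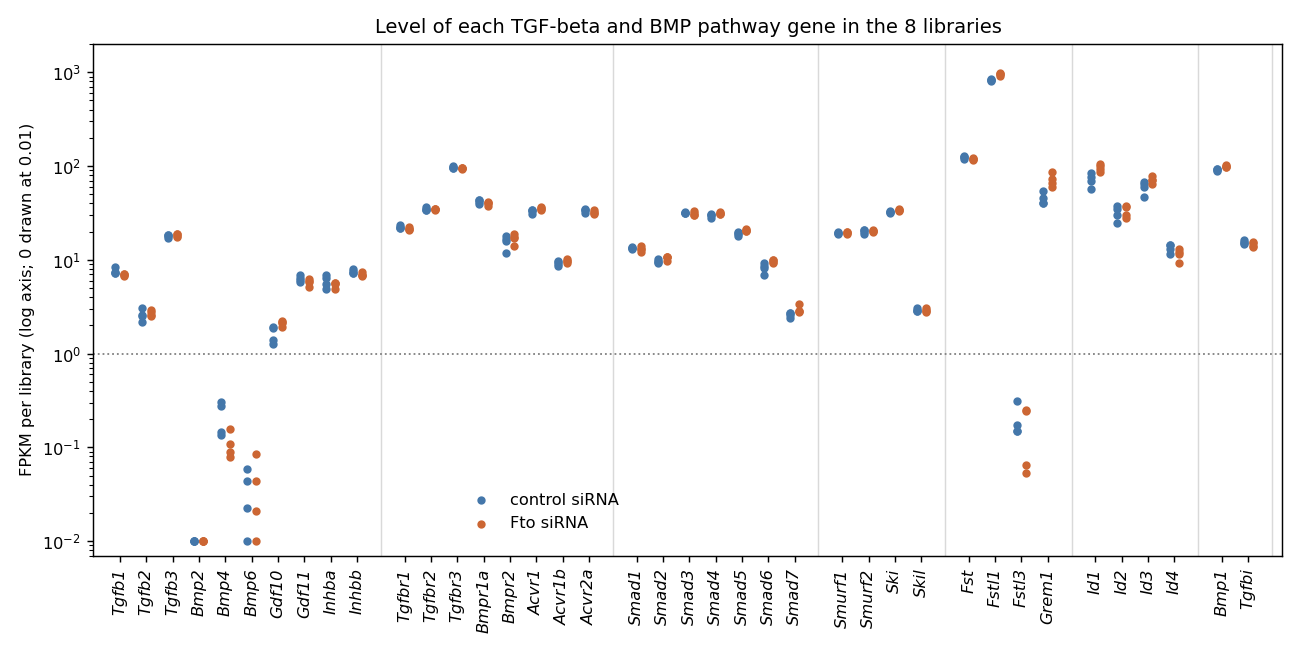
FPKM (y axis, log axis, values of 0 drawn at 0.01) of the 39 genes in the 8 libraries, ordered by role, with the filter of 1 FPKM as a dotted line. Fstl1 lies highest, and Bmp2, Bmp4, Bmp6 and Fstl3 lie below the filter in both groups.

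The 8 receptor genes were all expressed and none passed the test. Tgfbr3, the coreceptor betaglycan, was the most abundant at 97.4 ± 2.28 FPKM in the controls, followed by the BMP type I receptor gene Bmpr1a at 41.9 ± 1.82 FPKM. The type II receptor genes Tgfbr2 and Acvr2a and the type I receptor gene Acvr1 held 34.6 ± 1.35, 33.6 ± 1.503 and 32.9 ± 1.56 FPKM and were not separated by their spread. Below them lay Tgfbr1 at 22.5 ± 0.608, Bmpr2 at 15.7 ± 2.72 and Acvr1b at 9.15 ± 0.514 FPKM.

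The intervals of the receptor genes bounded most changes closely. Tgfbr2 had a log2 fold change of 0.00 (95% interval -0.08 to 0.08), Tgfbr3 of -0.03 (-0.10 to 0.04) and Tgfbr1 of -0.06 (-0.14 to 0.02). Acvr1 was the receptor gene whose groups did not overlap, with controls of 33.3, 33.8, 33.8 and 30.6 FPKM against 36.7, 34.2, 34.8 and 36.0 FPKM (0.11, 95% interval 0.01 to 0.20, adjusted p = 0.108). Bmpr2 had the widest interval, from -0.16 to 0.38. Its control replicate 3 held 11.8 FPKM against 16.0 to 18.1 FPKM in the other controls, and its estimate of 0.11 was -0.0155 without that library. Acvr2a shares its locus with Orc4, so reads of these genes may not be told apart.

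None of the 7 SMAD genes passed the test. A positive estimate was found for 5 of them, and for 5097 of all 11398 tested genes. The most abundant were Smad3, which carries TGF-β and activin signals, at 31.6 ± 0.372 FPKM in the controls, and the shared partner Smad4 at 29.7 ± 1.27 FPKM. Smad5, which carries BMP signals, held 18.9, 19.1, 17.995 and 19.6 FPKM in the controls and 21.2, 20.1, 20.6 and 20.3 FPKM with Fto siRNA. The groups did not overlap (log2 fold change 0.12, 95% interval 0.03 to 0.20), and its adjusted p of 0.0537 lay just above the threshold, falling to 0.0372 under median-ratio scaling. Smad1, the other BMP-regulated gene listed, had -0.05 (95% interval -0.16 to 0.07, adjusted p = 0.574).

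The inhibitory SMAD genes Smad6 and Smad7, which are induced by the signals they restrain, had the largest estimates of the SMAD genes. Smad6 held 6.94, 8.59, 9.29 and 8.11 FPKM in the controls and 9.26, 9.87, 9.99 and 9.38 FPKM with Fto siRNA, and overlapped through control replicate 3 alone. Its log2 fold change was 0.22 (95% interval 0.05 to 0.39, adjusted p = 0.0682), with an adjusted p of 0.0199 without that library and 0.0412 under median-ratio scaling. Smad7 held 2.61 ± 0.160 and 2.96 ± 0.296 FPKM without overlap (0.15, 95% interval -0.02 to 0.33, adjusted p = 0.202). The estimates for Smad2, Smad3 and Smad4 were 0.11, -0.03 and 0.08, with adjusted p of 0.121, 0.664 and 0.207.

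None of the 4 intracellular inhibitors passed the test. Smurf1 and Smurf2, ubiquitin ligases that mark SMADs and receptors for degradation, stood at 19.3 ± 0.2999 and 20.0 ± 0.996 FPKM in the controls, and their log2 fold changes were 0.01 (95% interval -0.06 to 0.08) and 0.02 (-0.07 to 0.12). The corepressor gene Ski held 32.4 ± 0.717 and 33.9 ± 0.742 FPKM without overlap (0.06, adjusted p = 0.196). Its relative Skil, a rapid TGF-β target, was far less abundant, at 2.93 ± 0.108 and 2.89 ± 0.112 FPKM (-0.02, 95% interval -0.15 to 0.12, adjusted p = 0.868).

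Variation between libraries was small for most of these genes. Over the 35 genes the median coefficient of variation was 4.49% in the controls and 3.87% with Fto siRNA, against 5.49% and 5.07% over all tested genes. Id1, Id2 and Id3 varied by 16.0%, 17.7% and 15.2% in the controls and Grem1 by 14.8%, while the half-width of the counting interval was 5.57%, 7.39%, 6.22% and 4.64% of their values. Gdf10 varied most in the controls, by 20.4% with a half-width of 20.5%, and Bmpr2 by 17.4% with a half-width of 5.71%. By contrast Fstl1, Smad3, Smurf1 and Ski varied by 1.63%, 1.18%, 1.55% and 2.21%.

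A pair of 3′ UTR words was frequent among the fallen genes of the whole comparison. The 35 tested pathway genes held them at about the share of all tested genes. An earlier analysis of these data had picked GACCTTA and ACCTTAA as the words whose carriers fell most, so their share among fallen genes is a description. In the longest GENCODE M21 3′ UTR of each gene, 26.3% of 1236 fallen genes, 8.33% of 708 risen genes and 13.1% of all 9819 tested genes with a 3′ UTR held either word. Of the 35 tested pathway genes, 4 (11.4%) did: Inhba, Bmpr1a, Smad2 and Skil. Their sites are shown on GRCm38 with 10 bases on either side and the word in capitals, other than that of Smad2.
Inhba, chr13:16028391-16028417, plus strand: attattttgtACCTTAAaaatagacac
Bmpr1a, chr14:34410863-34410889, minus strand: tgcccaacccACCTTAAtgaggggatt
Skil, chr3:31120131-31120157, plus strand: aatatattgtGACCTTActgtggattt
None of the 4 carriers passed the test, and their log2 fold changes were -0.10 for Inhba, -0.07 for Bmpr1a, 0.11 for Smad2 and -0.02 for Skil. The risen genes Grem1, Fstl1, Id1 and Bmp1 held neither word. Among the further pathway genes described next, 3 of 75 (4%) held one, a lower share than the 13.1% of all tested genes. Of these 3, Rgmb fell and Twsg1 and Usp15 did not pass (0.05 and 0.08, adjusted p = 0.308 and 0.187).

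The rest of the pathway was followed through 125 further genes in 7 lists, of which 124 were matched by symbol and 76 tested. Among these 12 rose and 8 fell, a share of 15.8% higher and 10.5% lower, beside the 6.97% and 12.3% of all tested genes. The count of risen genes was 6 without control replicate 2, 7 without control replicate 4, 5 without Fto siRNA replicate 1 and 7 without Fto siRNA replicate 3, and the count of fallen genes was 5 without control replicate 2. The median log2 fold change of the 76 genes was 0.05. Of 23 further ligand genes 21 lay below the filter, and neither Inha nor Gdf15, the tested pair, passed.

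Among 19 tested TGF-β target genes 8 rose and 2 fell, with a median of 0.17. These shares of 42.1% higher and 10.5% lower stand beside 6.97% and 12.3% of all tested genes. Tsc22d1, a TGF-β-stimulated leucine zipper gene, rose from 127 ± 5.26 to 157 ± 8.45 FPKM (log2 fold change 0.30, limma adjusted p = 0.0016), and Klf10, the TGF-β-inducible early gene, from 16.1 ± 0.417 to 20.0 ± 1.35 FPKM (0.30, adjusted p = 0.00234). The fibronectin receptor subunit gene Itga5 rose from 56.9 ± 1.97 to 65.6 ± 1.80 FPKM (0.20, adjusted p = 0.0041). Tpm1, a tropomyosin gene, fell from 671 ± 28.6 to 543 ± 15.6 FPKM (-0.30, adjusted p = 9.8e-04). These 4 and Snai2, which fell, were called under each alternative. The other 5 risen genes were less stable, since of 16 alternatives the call was lost in 10 for Col1a1, in 7 each for Col1a2 and Col3a1, and in 9 each for Bhlhe40 and Timp1. Members of the list therefore moved in both directions. The locus of Bhlhe40 overlaps 0610040F04Rik, and that of Timp1 overlaps Syn1.

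Among 9 tested BMP target genes outside the ID family 0 rose and 3 fell, with a median of 0.06 (limma). The shares were 0% higher and 33.3% lower, beside 6.97% and 12.3% of all tested genes. An unadjusted p under 0.05 was reached by 1 higher and 3 lower genes. Hes1, a basic helix-loop-helix repressor also controlled by Notch, fell from 13.1 ± 0.779 to 9.95 ± 0.841 FPKM (-0.38, adjusted p = 0.0028). Gata2, a zinc-finger factor of preadipocytes, fell from 6.21 ± 0.542 to 4.96 ± 0.276 FPKM (-0.30, adjusted p = 0.013). Runx2, an osteoblast factor, fell from 14.1 ± 0.570 to 12.8 ± 0.222 FPKM (-0.13, adjusted p = 0.0424), was not called under median-ratio scaling (0.0848) or when any single library other than control replicate 4 was left out (0.0566 to 0.109), and shares its locus with Supt3h. Thus Id1 and these 3 fallen targets were called in opposite directions. The 6 tested targets that were not called had positive estimates, as did 5097 of all 11398 tested genes.

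**Figure D4:**
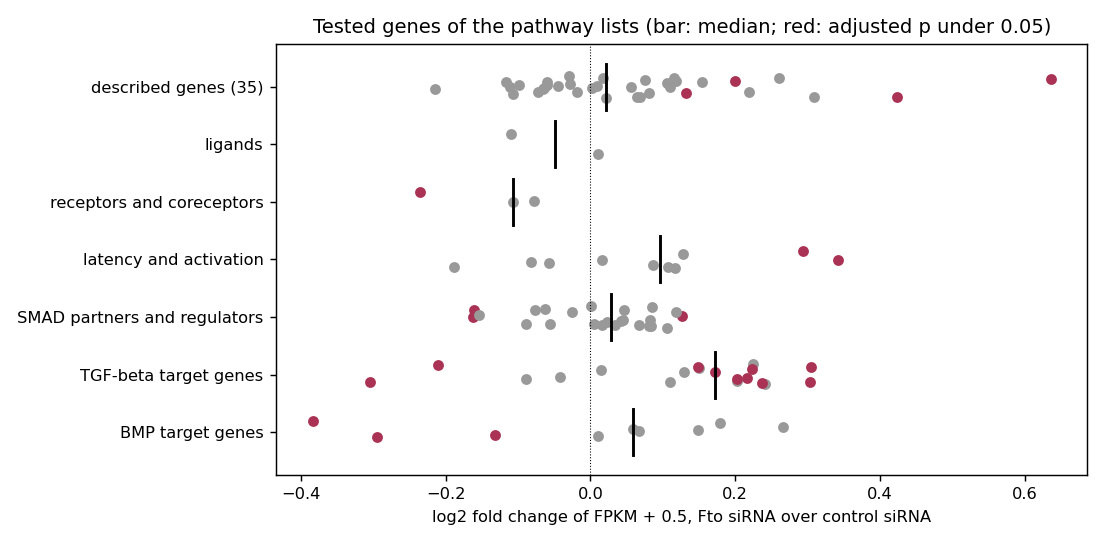
Log2 fold change of FPKM + 0.5 (x axis, Fto siRNA over control siRNA) for each tested gene of the 39 described genes (top row, 35 tested) and of 6 further pathway lists (y axis), with the median as a bar and genes with an adjusted p under 0.05 in red. The red TGF-β targets lie on both sides of 0 and the red BMP targets on the left of it.

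In the remaining lists the changes were few. Of 10 tested genes of TGF-β latency and activation 2 rose and 0 fell (20% and 0%, beside 6.97% and 12.3% of all tested genes). The fibrillin gene Fbn1, whose protein anchors latent TGF-β in the matrix, rose from 60.4 ± 6.41 to 73.9 ± 3.46 FPKM (log2 fold change 0.29, limma adjusted p = 0.0168; 0.0507 without Fto siRNA replicate 1). Lrrc32, which encodes the latent TGF-β anchor GARP, rose from 1.69 ± 0.182 to 2.27 ± 0.206 FPKM (0.34, adjusted p = 0.0249), and missed the threshold when control replicate 2 or 4 or replicate 1 or 3 of the Fto siRNA group was left out (0.0611 to 0.0638).

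Of 3 tested receptor and coreceptor genes Rgmb fell, and of 24 tested SMAD partners and regulators 1 rose and 2 fell. The shares higher and lower were 0% and 33.3% for the former list and 4.17% and 8.33% for the latter. They stand beside 6.97% and 12.3% of all tested genes. The BMP coreceptor gene Rgmb went from 21.5 ± 1.36 to 18.2 ± 1.201 FPKM (-0.24, limma adjusted p = 0.0175). Ppm1a, a phosphatase gene known to act on SMAD2 and SMAD3, rose by 0.13 (adjusted p = 0.0189). The corepressor gene Tgif2 fell by 0.16 (adjusted p = 0.0175; 0.0505 without control replicate 2). Zeb2, a SMAD-interacting repressor gene, fell by 0.16 (adjusted p = 0.024), and missed the threshold when control replicate 1, 2 or 4 or replicate 1 or 4 of the Fto siRNA group was left out (0.0565 to 0.0707). The locus of Tgif2 overlaps 5430405H02Rik, and that of Zeb2 overlaps Gm13476 and Mir5129.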

How the data were processed

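The authors sequenced RNA of 8 samples, 4 per siRNA group by the labels. Reads were aligned by TopHat2 2.0.11 to mm9 and expression was estimated by Cufflinks 2.2.1, per the submitters' processing notes. Values were deposited as FPKM, in 1 table per library with a counting interval and a status, per the file headers. FPKM are not counts, so no count test was run. The fragments behind a value were computed from the width of its interval, which covers counting error only, and all 39 genes had the status OK in each library. Loci are as deposited, in mm9, counted from 1. Strand handling was not given in the sources used.

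Groups were compared on log2(FPKM + 0.5) for the 11398 entries with a mean of at least 1 FPKM, with limma 3.58.1 (R 4.3.3), a mean-variance trend, two-sided p, Benjamini-Hochberg adjustment over all tested entries and a threshold of 0.05. A fold change on this scale understates that of low genes. Exact permutation tests were two-sided. No label tells whether the replicates were cultured separately, and each p-value therefore measures only how much these samples differed, which may be technical. The 39 genes, the lists and the words searched were chosen with earlier results of these data known. All 39 genes were named whatever their values, and of the further lists up to 4 called genes each with the lowest p. The test was tried on simulated data with known changes. Alternatives were other pseudocounts, filters and scalings, no trend, a replicate block and leaving out each library. The authors' compiled tables were not used. Python 3.11.15 and matplotlib 3.10.9 were used for tables and plots. Values of some further pathway genes and a list of secreted antagonists are not reported here.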

Additional observations from a re-analysis of the deposited data

Results flagged for a closer look

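A library stood far from the other 3 of its group in 9 of 106 groups of 4 examined, by a gap that took up most of the group's range, where chance gives about 5%. Control replicate 3 was the highest control for Tgfb1 (8.40 FPKM against 7.20 to 7.34), for Fstl3 (0.314 against 0.148 to 0.175) and for Hes1 (14.3 against 12.6 to 12.9), and the lowest for Zeb2 (31.2 against 33.4 to 33.6). Control replicate 4 was the lowest control for Acvr1, at 30.6 FPKM against 33.3 to 33.8. Fto siRNA replicate 4 was the lowest of its group for Inhba (4.84 FPKM against 5.57 to 5.66) and Tgfbr3 (93.8 against 95.9 to 96.1). Fto siRNA replicate 2 was the lowest for Smad2, at 9.81 FPKM against 10.6 to 10.8, and the highest for Smad7, at 3.40 FPKM against 2.77 to 2.84.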

How the results depend on the processing

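The sign of the median of the 35 tested genes and the calls of Grem1 and Fstl1 were the same under all 16 alternatives. With each library left out in turn, the risen genes of the 35 numbered 2 to 7 and the fallen ones 0, the further pathway genes 5 to 14 higher and 5 to 8 lower, and the median of the 35 genes was 0.00686 to 0.0360. That median was 0.0404 under median-ratio scaling and 0.0323 under quantile normalization. With no filter on low values 7 further pathway genes were higher in place of 12. Deviations of same-numbered libraries correlated at -0.19 to 0.0736 across genes, and 0 of 8 libraries correlated best with their own number. For Id1, Id2, Id3, Id4 and Grem1, however, replicate 1 was the lowest library in both groups. Whether same-numbered libraries shared a culture or a day is not given by the labels and was not tested. With the replicate block, 6 of the 35 genes were higher, with Smad6 and Id3 added, and 1 was lower, Id4 (-0.21, limma adjusted p = 0.0231). Of the further genes 9 were then higher and 6 lower. Ppm1a, Bhlhe40 and Timp1 were no longer called higher (0.0571, 0.0525 and 0.0721), and Zeb2 and Runx2 no longer lower (0.0625 and 0.0690). Over all genes 628 were higher and 1133 lower with the block. Precision is limited for genes near 1 FPKM, where the half-width of the interval was 20.5% of the value for Gdf10.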
